A study of Mus musculus with 35 samples.

Results

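The wild type (WT) mouse embryonic stem cells (ESCs) of day 25 were compared with those of day 11, and the WT cells of day 17 were set between them. These are 6 of the 35 libraries of the series, 2 per day, chosen by genotype and day alone. They had not been deleted for *Dnmt1* and served as the control arm of a time course in which the other arm lost *Dnmt1*, the maintenance DNA methyltransferase, after Cre induction by 4-hydroxytamoxifen. The labels give the cell type as ESC, the strain as E14 and the genotype as Wildtype, whereas the methods describe C57BL/6 ESCs with loxP sites in both *Dnmt1* copies, kept in serum with leukaemia inhibitory factor (LIF), with or without feeder cells. Whether the control cells also received 4-hydroxytamoxifen is not given in the sources used here. The day is therefore a day of culture, with no change of medium or differentiation step named for these cells. Total RNA was depleted of ribosomal RNA and sequenced with strand information. The *Dnmt1* knockout (KO) libraries of days 11, 17 and 25, 2 per day, were used where the change in WT was set against the change in KO.

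Mouse ESCs are derived from the inner cell mass of the blastocyst and renew themselves under LIF, which signals through STAT3. Cells close to the inner cell mass, termed naive, express *Nanog*, *Esrrb*, *Klf4*, *Tcl1* and *Prdm14*, and cells moving toward the postimplantation epiblast, termed formative or primed, gain *Dnmt3b*, *Pou3f1*, *Lef1* and *Otx2*, while *Pou5f1* and *Sox2* are shared by both. FGF signalling through ERK moves cells toward the primed state, and serum cultures hold a mixture of both states.

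Values are RPKM, reads scaled to the length of a gene's exons and to the size of the library, and differences are on the scale of log2(RPKM + 0.1) with each library centred on its median. The 6 libraries held 27.1 to 38.5 M reads, of which 44.7% to 49.1% lay in exons, with the 2 day 25 libraries lowest at 44.7% and 45.2%. The 2 libraries of a day correlated with r of 0.989 to 0.993 over the tested genes and differed by more than counting noise on every day. The series text calls the 2 libraries of a group biological replicates, and the labels do not say whether they came from separate cultures, so p-values measure the spread between these libraries. The 10 ESC markers were all above 1 RPKM in some library, and their summed level was 1940 and 1740 RPKM on day 11, 1549 and 1341 on day 17 and 1082 and 1108 on day 25. The largest part of this sum on day 11 was *Dppa5a*, with 1043 and 921 RPKM then and 334 and 352 on day 25. *Nanog*, *Sox2*, *Zfp42* and *Esrrb* were also lower on day 25, whereas *Sall4*, *Lin28a*, *Utf1* and *Pou5f1* were higher in both libraries. The markers thus did not fall together. Of 9 fibroblast markers, the defining genes of feeder cells, 8 stayed at or below 0.177 RPKM in all 6 libraries. The remaining one, *Thy1*, had 2.54 and 2.32 RPKM on day 11 and 0.384 and 0.191 on day 25. No primitive streak marker exceeded 0.239 RPKM and no neural marker exceeded 0.358 RPKM, and 1 of the 5 neural markers was at 0 throughout. The defining ESC markers were thus present on all 3 days. In bulk RNA a lower level may mean fewer cells of a type or less RNA per cell, and these cannot be told apart.

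*Dnmt1* itself, the gene targeted in the other arm, was present in every WT library. It lies on chromosome 9 from 20711650 to 20757317, minus strand, in NCBIM37. It had 14.1 and 14.1 RPKM on day 11, 16.2 and 17.4 on day 17 and 34.8 and 31.6 on day 25. The day 25 libraries were the highest and did not overlap the others, and the difference between days 25 and 11 was 1.15 (SE 0.094, limma adjusted p = 1.72e-05). The KO libraries of days 11 and 25 held 2.58 to 4.40 RPKM. *Dicer1*, which cuts microRNA precursors and is deleted in another library of the series, had 5.59 and 6.27 RPKM on day 11 and 8.57 and 8.15 on day 25, a difference of 0.41 (limma adjusted p = 0.0438). With values corrected for exon GC content and length, as described further on, the *Dicer1* difference was 0.14 (limma adjusted p = 0.327).

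Among 10870 genes above 1 RPKM in at least 2 of the 6 libraries, limma called 7004 different between days 25 and 11 at an adjusted p of 0.05, which is 64.4% of the genes tested. Of the tested genes 29.0% were called higher on day 25 (3155) and 35.4% lower (3849), and the median difference over all tested genes was -0.07. By at least 1 log2 unit, 1010 genes (9.29%) were called higher and 1072 (9.86%) lower. Because most genes were called, a list of genes was read against these shares and not against 0. From day 11 to day 17, 2449 genes (22.5%) were called higher and 1931 (17.8%) lower, and from day 17 to day 25, 2473 (22.8%) were called higher and 3904 (35.9%) lower. The count for days 11 to 17 leaned on both day 11 libraries, since 4380 genes were called with both, 2677 without the first and 2652 without the second. Day 17 lay between days 11 and 25 in 4304 of the 7004 genes, 60.8% of those called higher and 62.0% of those called lower, against 16.1% of those not called. Called genes have days 11 and 25 far apart, which leaves more room between them. This contrast therefore follows partly from the calls and does not show an ordered course. The later interval held more lower calls than the earlier one, and several gene groups described here had most of their calls in 1 of the intervals.

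Factors of naive pluripotency were mostly lower on day 25, while the shared core factors were divided. Of 16 tested naive genes 10 were called lower and 2 higher, with a median of -0.65 on day 25 and -0.64 on day 17. *Tcl1*, a coactivator of AKT kinase, had the largest drop of all tested genes that met the naming rule. It lies on chromosome 12 from 106454967 to 106460947, minus strand, in NCBIM37. It had 17.6 and 19.104 RPKM on day 11, 4.85 and 4.39 on day 17 and 1.2 and 1.27 on day 25, and fell by 3.87 (SE 0.106, limma adjusted p = 2.34e-07). The 3 days did not overlap. *Prdm14*, a repressor of FGF receptor signalling and of de novo methylation, had 2.76 and 2.32 RPKM on day 11 and 0.636 and 0.546 on day 25 and fell by 2.01. *Fbxo15*, a target of *Pou5f1* and *Sox2*, fell by 1.94, and *Dppa3*, a maternal factor that limits methylation, fell by 1.54. *Dppa3* had 27.9 and 24.4 RPKM on day 11, 25.14 and 22.3 on day 17 and 8.51 and 10.4 on day 25, so its drop came after day 17. *Esrrb*, an orphan nuclear receptor, had 27.9 and 28.4 RPKM on day 11, 11.7 and 13.6 on day 17 and 14.7 and 14.3 on day 25, so its drop came before day 17. *Tcfcp2l1*, a LIF target, went the same way and fell by 1.09. *Gbx2* and *Stat3* were the 2 naive list members called higher, by 1.03 and 1.15. *Klf2* (0.33), *Klf5* (0.17), *Tbx3* (0.18) and *Nr5a2* (-0.24) did not pass the test.

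Of 13 core pluripotency factors 4 were called higher (30.8%) and 3 lower (23.1%), with a median of 0.07. Over all tested genes these shares were 29.0% and 35.4%. *Nanog*, the homeodomain factor that holds cells in self-renewal, had 161 and 157 RPKM on day 11, 69.9 and 67.4 on day 17 and 30.7 and 32.7 on day 25. The 3 days were apart from each other, and the difference between days 25 and 11 was -2.40 (SE 0.0959, limma adjusted p = 1.29e-06). *Sox2* had 84.2 and 84.6 RPKM on day 11, 52.4 and 51.8 on day 17 and 46.1 and 44.1 on day 25 and fell by 0.98. *Dppa5a*, an RNA-binding protein of early embryos, fell by 1.60. *Pou5f1*, the gene of OCT4, had 169 and 161 RPKM on day 11, 260 and 213 on day 17 and 184 and 183 on day 25. It was highest on day 17, and its difference between days 25 and 11 was 0.07 (limma adjusted p = 0.639). *Sall4*, a zinc finger partner of OCT4, had 7.83 and 9.12 RPKM on day 11, 8.90 and 13.4 on day 17 and 38.9 and 35.7 on day 25 and rose by 2.05. *Lin28a* and *Gdf3* rose by 0.59 and 0.94, and *Utf1*, *Tdgf1*, *Dppa4* and *Zfp281* did not pass the test, of which *Tdgf1* was called higher after the correction for exon GC content and length (0.37, limma adjusted p = 0.015).

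Genes of the formative and primed states were mostly higher, 10 of 15 called higher and 4 lower, with a median of 0.88 on day 25 and 0.92 on day 17. *Lef1*, a transcription factor of the Wnt pathway, had 0.156 and 0.117 RPKM on day 11, 0.613 and 0.969 on day 17 and 3.87 and 3.88 on day 25, a difference of 3.99 (limma adjusted p = 4.31e-06). Its day 11 level is below the filter of 1 RPKM, where a pseudocount of 0.1 bears on the size of the difference. *Dnmt3b*, a de novo DNA methyltransferase, had 12.4 and 14.9 RPKM on day 11, 36.4 and 41.3 on day 17 and 47.4 and 46.5 on day 25 and rose by 1.70. *Pou3f1* (OCT6), a factor of the early epiblast, had 2.31 and 2.73 RPKM on day 11, 10.6 and 10.1 on day 17 and 8.76 and 8.34 on day 25 and rose by 1.64. *Dnmt3b* had reached most of its day 25 level by day 17, and *Pou3f1* was highest then. *Zic2*, *Sall2*, *Foxd3* and *Sox4* rose by 2.17, 2.54, 1.46 and 1.01. *Lef1*, *Zic2* and *Sall2* were under 1 RPKM on day 11 and passed the filter through their day 25 libraries. Their higher calls, and with them the count of the list, thus follow partly from the filter. *Otx2*, a leading factor of the formative state, was called lower, with 3.97 and 3.46 RPKM on day 11 and 3.23 and 2.90 on day 25 (-0.35, limma adjusted p = 0.0439), a call lost after the correction (-0.28, limma adjusted p = 0.0788). *Tead2*, *Krt18* and *Cldn6* were also called lower, and *Zic5* had a difference of 0.00.

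**Figure D1:**
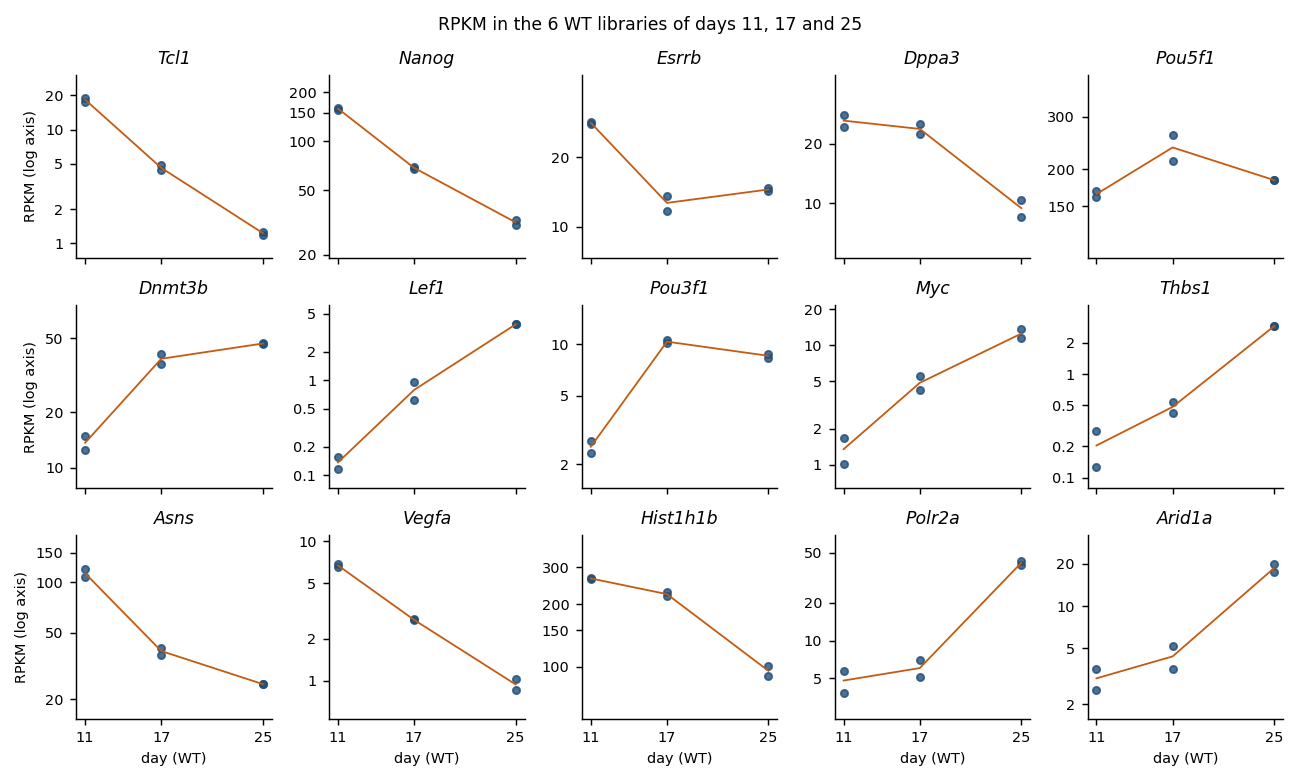
RPKM on a log axis against day (11, 17, 25) for 15 genes in the 6 WT libraries; each point is 1 library and the line joins the daily means. Tcl1, Nanog, Asns and Vegfa dropped at each step, Esrrb dropped by day 17 only, Dppa3 and Hist1h1b dropped mainly after day 17, and Polr2a stayed at 3.84 to 6.96 RPKM until day 17 and reached 43.0 and 40.1 on day 25.

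The signalling lists differed in direction. In the FGF and ERK list 12 of 17 genes were called higher and 3 lower, with a median of 0.62 on day 25 and 0.21 on day 17. *Myc*, which ERK stabilises and which drives growth, lies on chromosome 15 from 61816946 to 61821929, plus strand, in NCBIM37. It had 1.02 and 1.68 RPKM on day 11, 4.19 and 5.52 on day 17 and 13.6 and 11.4 on day 25, a rise of 3.07 (SE 0.207, limma adjusted p = 7.87e-06) that was the largest among genes that met the naming rule. *Egr1*, an immediate early gene of ERK, had 0.308 and 0.285 RPKM on day 11 and 1.35 and 1.37 on day 25 and rose by 1.80. The feedback inhibitors *Spred2*, *Spry4* and *Dusp5* rose by 1.63, 0.88 and 1.24, whereas *Spry1* and *Dusp4* fell by 1.13 and 0.79. The ligand *Fgf4* fell by 0.61 and its receptors *Fgfr1* and *Fgfr2* rose by 0.68 and 0.50. After the correction for exon GC content and length neither receptor was called, with 0.21 for *Fgfr1* (limma adjusted p = 0.158) and 0.09 for *Fgfr2* (limma adjusted p = 0.525). The inhibitors and the receptors thus did not all share 1 direction.

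In the LIF and STAT3 list 3 of 10 genes were called higher (30%) and 5 lower (50%), with a median of -0.35. Over all tested genes these shares were 29.0% and 35.4%. The receptor chain *Il6st* (gp130) fell by 0.68 and the kinase *Jak2* by 1.08, while the receptor *Lifr* had a difference of -0.08 (limma adjusted p = 0.514) that was called after the correction (-0.25, limma adjusted p = 0.0281). *Stat3* and the target kinase *Pim1* rose by 1.15 and 1.25, whereas *Pim3* and the target *Socs3* fell by 0.95 and 0.51. In the Nodal list 7 of 13 genes were called higher and 2 lower, with a median of 0.31. The ligand *Nodal* rose by 0.52 and its cofactor *Foxh1* by 0.56. The receptor genes went both ways, since *Acvr1b* and *Acvr2a* fell by 0.83 and 0.68 and *Acvr2b* rose by 0.56. In the BMP list 3 of 8 genes were called higher (37.5%) and 4 lower (50%), against the same 29.0% and 35.4%. The ligand *Bmp4* had 5.24 and 5.68 RPKM on day 11, 1.55 and 2.11 on day 17 and 2.78 and 2.47 on day 25 and fell by 1.11. Of the BMP target genes *Id3* rose by 1.50 and *Id1* by 0.55, *Id4* fell by 2.49 and *Id2* did not pass the test, though it was called higher after the correction (0.47, limma adjusted p = 0.00289). Of 15 Wnt targets 5 passed the filter of 1 RPKM, and the rest, among them *Axin2*, *Nkd1* and *Dkk1*, were not tested. *Lef1* passed it only through its day 25 libraries, so its call follows partly from the filter. All 5 tested targets were called higher, with a median of 1.1. Besides *Lef1* they were *Ccnd1* (cyclin D1), which had 6.29 and 6.0 RPKM on day 11, 17.8 and 17.9 on day 17 and 21.7 and 22.2 on day 25, and *Tcf7*, *Notum* and *Znrf3*, which rose by 0.67, 1.1 and 0.59. After the correction 4 of the 5 were called, and *Znrf3* was not (0.27, limma adjusted p = 0.181).

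Targets of SRF and YAP, 2 regulators that answer to the state of the actin cytoskeleton, were higher as a group. Of 16 tested genes 12 were called higher and 0 lower, with medians of 0.95 on day 25 and 0.42 on day 17. *Thbs1*, a secreted matrix protein, had 0.127 and 0.282 RPKM on day 11, 0.423 and 0.541 on day 17 and 2.89 and 2.91 on day 25, a difference of 3.27 (limma adjusted p = 1.57e-05). *Cyr61* and *Ctgf*, 2 targets of YAP, rose by 1.85 and 0.94. The cytoskeletal actins rose together, *Actb* from 320 and 319 RPKM on day 11 through 508 and 506 on day 17 to 720 and 677 on day 25, and *Actg1* by 1.71. *Tagln*, an actin-binding protein, rose by 2.20 and *Vcl*, *Flna* and *Tpm1* by 0.98, 0.96 and 0.81. *Tpm2* (-0.37), *Cnn1* (0.30), *Cnn2* (0.17) and *Lats2* (0.22) did not pass the test. Reads of the actins may be shared with pseudogenes, so their levels are uncertain.

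SRF binds a sequence called the CArG box, and the promoters of the list were searched for it on both strands, from 250 bases before to 50 bases after each RefSeq start (build GRCm38.p6). A match was present for 5 of the 13 list genes with a promoter sequence (38.5%), against 1.81% of 27025 genes. The list was made of targets of SRF and YAP, so a higher share follows partly from its making and is no result of these libraries. A match is a description and not a site in use. These windows are shown because *Myl9*, *Actg1* and *Vcl*, 3 of the 4 matched genes called higher, carry the box, and the capitals mark it. They lie at chr2:156775293-156775322 on the plus strand, chr11:120348566-120348595 on the minus strand and chr14:20929161-20929190 on the plus strand.
Myl9: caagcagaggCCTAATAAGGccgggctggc
Actg1: ggaaagatcgCCATATATGGacatgttctg
Vcl: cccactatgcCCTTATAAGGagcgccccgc
The fourth was *Srf* itself (0.39), whose call was lost after the correction for exon GC content and length (0.00, limma adjusted p = 0.99), and the fifth, *Cnn2*, was not called. Over the list the correction left 10 genes called higher and 1 lower, which was *Tpm2* (-0.59, limma adjusted p = 0.00966).

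Genes of the amino acid response were lower on day 25. ATF4 is a transcription factor that is translated when amino acids or protein folding fail and that switches on amino acid synthesis. Of 19 tested genes of the ATF4 list 14 were called lower and 2 higher, with medians of -0.91 on day 25 and -0.10 on day 17. *Asns* (asparagine synthetase) had 107 and 120 RPKM on day 11, 40.7 and 37.0 on day 17 and 24.5 and 24.7 on day 25 and fell by 2.28 (limma adjusted p = 1.61e-06). The serine pathway enzymes *Phgdh*, *Psat1* and *Psph* fell by 1.40, 1.47 and 1.32. *Pycr1*, which makes proline, fell by 2.61, and *Chac1*, which breaks down glutathione, fell by 2.39. *Chac1* had 6.03 and 7.81 RPKM on day 11, 7.20 and 6.72 on day 17 and 1.46 and 1.17 on day 25, so the drop came after day 17, unlike that of *Asns*. *Atf4* itself had 117 and 129 RPKM on day 11, 161 and 150 on day 17 and 79.6 and 78.5 on day 25 and fell by 0.72. The 2 members called higher were *Slc7a5*, a leucine transporter (1.66), and *Sesn2*, a leucine sensor that is also a p53 target (1.25). *Atf5*, *Ddit3* and *Shmt2* did not pass the test.

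ATF4 with its partners binds the amino acid response element, and its core TGATGNAA was searched on both strands of the same promoters. It was present for 7 of the 20 list genes with a promoter sequence (35%), against 4.51% of 27025 genes. This list too was made around ATF4, so the higher share follows partly from its making. All 5 of the matched genes that were tested were called lower, as were 14 of the 19 tested genes of the whole list. Whether the drop goes with the core was not tested. The windows of 4 of them are shown because these genes fell by more than 2 log2 units, with the core in capitals, read on the gene's strand. They lie at chr2:119351038-119351067 (plus strand), chr6:7693214-7693243, chr7:126625562-126625591 and chr11:120643833-120643862 (minus strand) in GRCm38.p6.
Chac1: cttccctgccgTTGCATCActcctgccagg
Asns: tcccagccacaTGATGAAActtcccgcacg
Nupr1: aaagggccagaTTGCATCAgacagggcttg
Pycr1: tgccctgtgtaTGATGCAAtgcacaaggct
The core lies on the opposite strand in *Chac1* and *Nupr1*. *Nupr1*, a small stress-induced nuclear protein, had 6.07 and 6.55 RPKM on day 11, 2.92 and 2.69 on day 17 and 0.679 and 0.676 on day 25 and fell by 3.12. The fifth matched gene, *Trib3*, fell by 0.36.

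Hypoxia targets were called lower in 10 of 13 cases and higher in 0, with medians of -0.92 on day 25 and -0.22 on day 17. *Vegfa*, the main growth factor for blood vessels, had 6.51 and 6.87 RPKM on day 11, 2.75 and 2.70 on day 17 and 1.02 and 0.859 on day 25 and fell by 2.79 (SE 0.127, limma adjusted p = 1.8e-06). *Bnip3*, a mitophagy receptor, had 36.8 and 19.15 RPKM on day 11 and 8.98 and 11.12 on day 25, and *Egln3*, a prolyl hydroxylase, had 5.55 and 3.24 and then 1.53 and 1.27. The day 11 libraries of these 2 genes were wider apart than those of *Vegfa*, and neither overlapped day 25. *Mxi1*, *Pdk1* and *P4ha1* fell by 1.72, 0.92 and 1.21. In glycolysis 5 of 18 genes were called higher (27.8%) and 8 lower (44.4%), against 29.0% and 35.4% of all tested genes. The glucose transporter *Slc2a1* rose by 1.03 and *Slc2a3* fell by 0.64, the phosphofructokinase *Pfkp* fell by 2.35, and *Ldha* had a difference of 0.21 (limma adjusted p = 0.298). *Gapdh* was at only 4.35 to 5.42 RPKM, a level made uncertain by near-identical copies, since reads of low mapping quality were discarded.

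Cholesterol synthesis genes were called lower in 14 of 22 cases and higher in 3, with a median of -0.41. *Insig1*, a sterol sensor, had 35.0 and 31.8 RPKM on day 11, 21.0 and 20.3 on day 17 and 9.41 and 8.74 on day 25 and fell by 1.95. The enzymes *Sc4mol* (Msmo1), *Cyp51*, *Fdps* and *Fdft1* had differences of -1.83, -1.48, -1.44 and -1.3. *Srebf2*, the regulator of the pathway, rose by 0.45, a call lost after the correction (0.02, limma adjusted p = 0.833). In the oxidative stress list 6 of 17 genes were called higher (35.3%) and 10 lower (58.8%), against 29.0% and 35.4% of all tested genes. *Hmox1*, which degrades haem, had 4.37 and 4.23 RPKM on day 11, 9.78 and 12.7 on day 17 and 21.1 and 19.6 on day 25 and rose by 2.13, and *Gpx1* and *Nqo1* rose by 1.71 and 1.11. *Gstm1*, *Gpx2* and *Cat* fell by 1.53, 1.95 and 1.03. Of the heat shock and chaperone genes 3 of 17 were called higher (17.6%) and 6 lower (35.3%), against 29.0% and 35.4% of all tested genes. The share called lower was thus that of all genes, and *Hspb1* and *Hspb8* were down by 1.42 and 2.13. Of 10 interferon and RNA sensing genes 5 were called lower and 0 higher, and *Ifitm1*, *Ifitm2* and *Bst2*, which block virus entry or release, had differences of -2.53, -2.10 and -2.15. Among p53 targets 9 of 17 were called higher and 3 lower. *Mdm2*, the ligase that degrades p53, had 12.4 and 11.9 RPKM on day 11, 9.59 and 10.9 on day 17 and 25.09 and 24.0 on day 25 and rose by 0.93, and *Cdkn1a* (p21) had a difference of 0.10 (limma adjusted p = 0.368).

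Large families of short, abundant transcripts were lower on day 25 in near unison, with medians near 0 on day 17 for the nuclear-encoded ones. Replication-dependent histones are made in S phase to package new DNA, and 55 of 59 tested genes were called lower and 1 higher, with a median of -1.04 on day 25 and 0.05 on day 17. *Hist1h1b* had 267 and 264 RPKM on day 11, 227 and 219 on day 17 and 90.7 and 101 on day 25 and fell by 1.55. *Hist1h3d* and *Hist1h2bg* fell by 2.15 and 1.92. The member called higher was *Hist1h2aa*, which encodes a testis histone and had 3.86 and 3.26 RPKM on day 11, 31.9 and 24.1 on day 17 and 16.8 and 18.7 on day 25 (2.21, limma adjusted p = 8.28e-06). Histone genes have near-identical copies, so single members are uncertain.

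Most histone transcripts of this kind end in a stem-loop and carry no poly(A) tail. The commonest 16-base run in the last 150 bases of the annotated histone transcripts, written as DNA and shown because it marks this class, is palindromic at its ends.
Shared histone run: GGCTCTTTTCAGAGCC
It lay within those last 150 bases in 17 histone genes. Searched anywhere in the transcripts, it was found in 28 of the 66 histone genes of the table and in 30 of 22611 genes in all. Of 25 tested histones with this run 23 were called lower (median -1.10), and of 34 without these exact letters 32 were called lower (median -1.03). The drop was as frequent with these exact letters as without them. Genes without these letters may still end in a stem-loop, so the split cannot show whether the drop goes with it.

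Cytosolic ribosomal protein genes were called lower in 79 of 84 cases and higher in 1, with medians of -0.78 on day 25 and 0.08 on day 17. *Rpl3* had 633 and 575 RPKM on day 11, 551 and 497 on day 17 and 342 and 354 on day 25, and *Rpl17* fell by 1.64. *Rpl7l1*, called higher by 0.33, is related to *Rpl7* by name and acts in making ribosomes. The list was taken by symbol and holds related genes such as *Rpl39l* and *Rpl22l1*, which fell by 2.25 and 1.59, and most members have processed pseudogenes. Of 89 genes with symbols of respiratory chain subunits 66 were called lower and 2 higher, with medians of -0.60 and 0.11. *Cox6b2*, a testis form of a complex IV subunit, fell by 2.51 and *Ndufa6*, of complex I, by 1.60. *Sdha*, of complex II, rose by 0.66, and the other gene called higher, *Cox4nb*, is not a subunit of complex IV. Of 13 protein genes encoded by the mitochondrial genome 11 were called lower and 0 higher, with a median of -1.12. *mt-Atp6* had 521 and 427 RPKM on day 11, 282 and 355 on day 17 and 149 and 132 on day 25 and fell by 1.83. Mitochondrially encoded genes held 7.25% and 6.77% of all RPKM on day 11, 4.46% and 5.66% on day 17 and 3.75% and 3.47% on day 25. After correction for exon GC content and length the median was -0.85 for histones (53 called lower), -0.56 for ribosomal proteins (68 called lower), -0.31 for respiratory subunits (48 called lower, 8 higher) and -0.03 for mitochondrially encoded genes (6 called lower, 3 higher). The median of the mitochondrially encoded genes was thus near 0 after the correction.

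**Figure D2:**
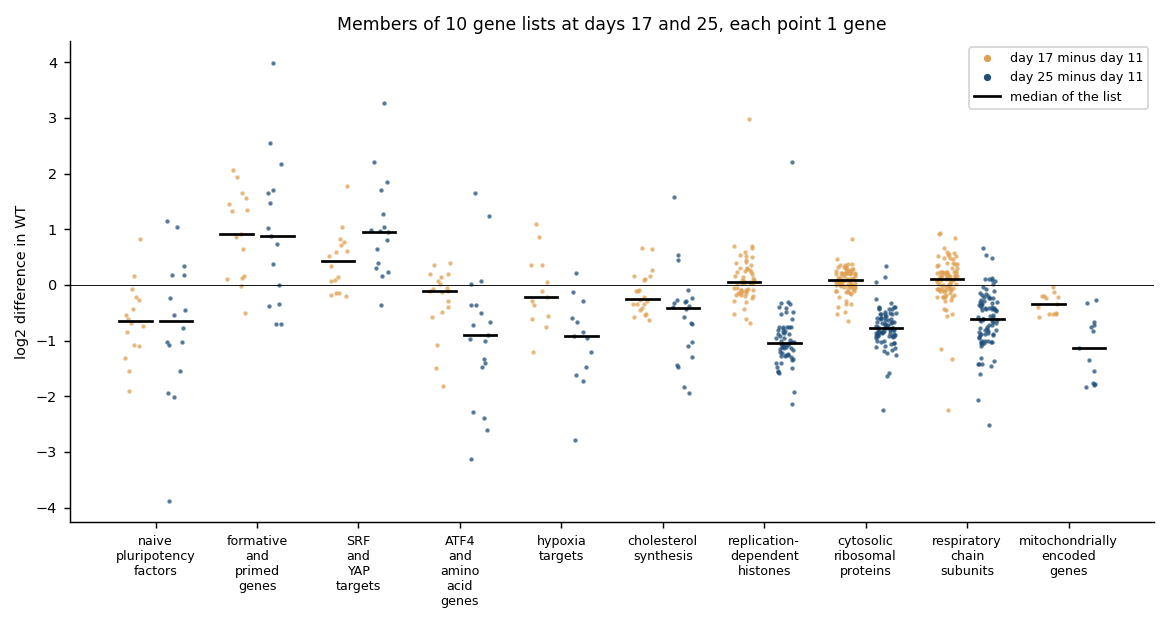
Differences on the log2 scale from day 11 to day 17 (orange) and from day 11 to day 25 (blue) for the tested members of 10 gene lists; each point is 1 gene and each bar the median of the list. Naive and primed lists had their medians on day 17 already (-0.64 and 0.92), whereas histones, ribosomal proteins and respiratory subunits lay at 0.05, 0.08 and 0.11 on day 17 and at -1.04, -0.78 and -0.60 on day 25.

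Genes of the cell cycle did not go one way. Of 20 S phase and mitosis genes 7 were called higher (35%) and 7 lower (35%), with a median of -0.05. Over all tested genes these shares were 29.0% and 35.4%. *Mki67*, a marker of cycling cells, had 46.2 and 43.9 RPKM on day 11, 24.7 and 29.5 on day 17 and 15.7 and 14.4 on day 25 and fell by 1.66, and *Bub1* and *Ccnb2* fell by 1.15 and 0.83. *Cdc20*, *Rrm2* and *Plk1* rose by 1.05, 0.73 and 0.65, and *Pcna* had a difference of -0.05 (limma adjusted p = 0.755) that came to 0.40 after the correction (limma adjusted p = 0.00344). Of 17 G1 genes 7 were called higher (41.2%) and 4 lower (23.5%), against the same 29.0% and 35.4%. *Ccne1* (cyclin E1) had 27.9 and 26.7 RPKM on day 11, 53.3 and 53.3 on day 17 and 57.3 and 59.3 on day 25 and rose by 1.01, and *Mycn* rose by 0.93. The inhibitor *Cdkn1b* (p27) fell by 0.84.

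Among writers and readers of chromatin marks the lists were mixed, with single members far apart. In the DNA methylation list 7 of 17 genes were called higher (41.2%) and 5 lower (29.4%), with a median of 0.12. Over all tested genes these shares were 29.0% and 35.4%. Besides *Dnmt1* and *Dnmt3b*, *Dnmt3a* rose by 0.74 and *Uhrf1*, which brings DNMT1 to replicating DNA, rose by 0.45. *Dnmt3a* was highest on day 17, with 2.60 and 2.68, then 8.17 and 8.25, then 4.67 and 4.79 RPKM. After the correction for exon GC content and length *Dnmt3a* had a difference of 0.12 and *Uhrf1* one of 0.14. Of the TET enzymes, which oxidise methylcytosine, *Tet2* fell by 0.94, *Tet3* rose by 1.86 from 0.230 and 0.323 RPKM to 1.38 and 1.31, and *Tet1* was called higher by 0.43, a call lost after the correction (0.25, limma adjusted p = 0.0569). *Zfp57*, which keeps methylation at imprinted regions, fell by 1.08.

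In the list of H3K9 methylation and transposon repressors 7 of 17 table entries were called higher (41.2%) and 5 lower (29.4%). Over all tested genes these shares were 29.0% and 35.4%. *Trim28* (KAP1), the corepressor of zinc finger proteins at transposons, had 40.1 and 42.9 RPKM on day 11, 74.1 and 84.1 on day 17 and 155 and 147 on day 25 and rose by 1.78. *Atrx*, a chromatin remodeller at repeats, had 33.5 and 33.6 RPKM on day 11, 23.3 and 25.3 on day 17 and 10.9 and 10.5 on day 25 and fell by 1.72. *Atrx* and its partner *Daxx*, which rose by 0.93, thus moved apart. *Atf7ip* stands in the table as 2 neighbouring annotated genes, which were called in opposite directions (0.60 and -0.64). After the correction the lower call was lost (-0.37, limma adjusted p = 0.0942). In the Polycomb list 5 of 16 genes were called higher (31.25%) and 7 lower (43.75%), near the 29.0% and 35.4% of all tested genes. *Kdm2b* and *Jarid2* were up by 1.19 and 0.87 and *Mtf2* and *Rnf2* down by 0.89 and 0.75. After the correction 4 genes of the list were called higher and 3 lower, and *Rnf2* had a difference of -0.17. The zinc finger genes named Zfp were called higher in 65 of 283 cases (22.97%) and lower in 119 (42.05%), with a median of -0.18. These shares too stand against 29.0% and 35.4% of all tested genes. After the correction the Zfp genes were called higher in 79 and lower in 72 cases, with a median of -0.01.

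The machinery of small RNAs was mostly higher. Of 13 tested genes 9 were called higher and 1 lower, with a median of 0.79 on day 25 and 0.04 on day 17. The median exon length of the list was 8031 bases, against 3408 over all tested genes. After the correction for exon GC content and length 7 were called higher and 2 lower, with a median of 0.65. *Drosha*, the nuclear nuclease of microRNA precursors, had 6.75 and 7.78 RPKM on day 11, 8.16 and 9.94 on day 17 and 26.0 and 22.0 on day 25 and rose by 1.63. Its partner *Dgcr8* rose by 0.79. The Argonaute genes *Eif2c1* (Ago1) and *Eif2c2* (Ago2) rose by 1.41 and 1.35. *Eif2c3* (-0.29) did not pass the test and was called lower after the correction (-0.38, limma adjusted p = 0.0369). *Prkra* (PACT), a partner of Dicer, fell by 1.43. In the let-7 list, which holds the blockers and the targets of that microRNA family, 7 of 12 were called higher and 3 lower, with a median of 0.56. *Igf2bp1* had 13.8 and 20.6 RPKM on day 11, 27.2 and 36.6 on day 17 and 86.4 and 84.0 on day 25 and rose by 2.25. *Trim71* rose by 1.86 and *Igf2bp2* fell by 1.82.

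Of 18 tested imprinted genes 11 were called higher and 3 lower, with a median of 0.42 on day 25 and 0.63 on day 17. *Mest* rose by 1.53 and *Peg10* by 1.15, *Cdkn1c* (p57) had 4.49 and 4.39 RPKM on day 11, 16.7 and 15.8 on day 17 and 10.2 and 9.22 on day 25, and *H19* had 9.25 and 9.02, then 13.1 and 13.7, then 3.14 and 2.95 RPKM and fell by 1.64. *Igf2*, the neighbour of *H19*, rose by 0.90 from 0.694 and 0.851 to 1.61 and 1.62 RPKM. Germline genes that DNA methylation keeps silent were called higher in 2 of 16 cases and lower in 8, with a median of -0.31 that came to -0.03 after the correction, with 6 called in each direction. *Dazl*, an RNA-binding protein of germ cells, had 3.39 and 3.40 RPKM on day 11, 1.48 and 1.18 on day 17 and 0.453 and 0.404 on day 25 and fell by 2.81. *Fmr1nb* and *Sycp3* fell by 3.32 and 1.57, and *Ddx4* and *Taf7l* rose by 0.70 and 0.95.

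The primitive endoderm list was lower on day 17 than on day 11 for most members. Of 13 tested genes 11 were called lower on day 17 than on day 11 (median -1.07). On day 25, 4 were called lower (30.8%) and 2 higher (15.4%), with a median of -0.12, against 35.4% and 29.0% of all tested genes. *Gata6* had 1.13 and 1.33 RPKM on day 11, 0.391 and 0.410 on day 17 and 1.43 and 1.13 on day 25. *Gata4* had 1.22 and 1.38, then 0.561 and 0.601, then 1.16 and 1.13 RPKM. *Lama1*, a chain of basement membrane laminin, had 6.06 and 8.19, then 1.87 and 3.26, then 10.4 and 9.43 RPKM. For these 3 genes days 11 and 25 did not differ by the test, and their levels at both were above those of day 17. After the correction *Gata4* was called lower on day 25 (-0.59, limma adjusted p = 0.0118), and over the list 7 genes were called lower, with a median of -0.48. In the adhesion list 4 of 18 genes were called higher (22.2%) and 7 lower (38.9%), near the 29.0% and 35.4% of all tested genes. *Cdh1* (E-cadherin) and *Itgb1* rose by 0.65 and 0.82, the gap junction gene *Gjb5* fell by 1.37, and *Spp1* (osteopontin) had 195 and 191 RPKM on day 11, 128 and 115 on day 17 and 27.7 and 29.99 on day 25 and fell by 2.82.

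**Figure D3:**
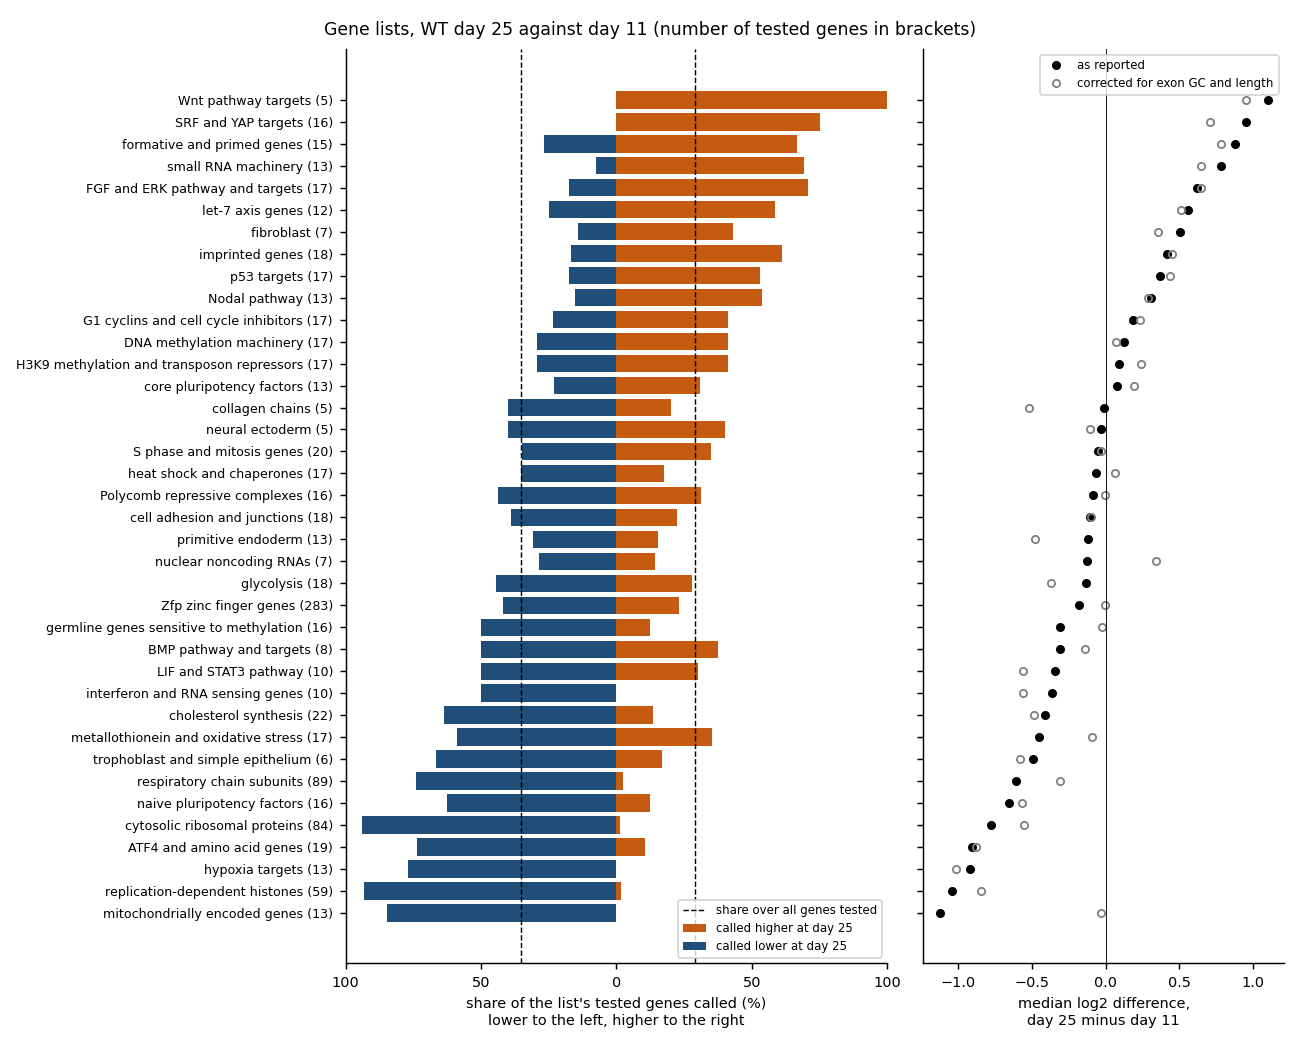
Gene lists with at least 5 tested genes; the left panel gives the percent of a list's tested genes called lower (blue) or higher (orange) on day 25, with dashed lines at the shares over all tested genes (35.4% and 29.0%), and the right panel the median log2 difference as reported (filled) and after correction for exon GC content and length (open). Wnt, SRF and YAP, primed, small RNA and FGF lists lay highest and the mitochondrially encoded, histone, hypoxia and ATF4 lists lowest as reported, of which the mitochondrially encoded list came to -0.03 after the correction.

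The 15 largest rises that met the naming rule, which asked for a call, a mean log2(RPKM + 0.1) of at least 1 and no overlap between days 11 and 25, ran from 2.39 to 3.07. After *Myc* came *Polr2a*, the gene of the largest subunit of RNA polymerase II, on chromosome 11 from 69547499 to 69572139, minus strand, in NCBIM37. *Polr2a* had 3.84 and 5.79 RPKM on day 11, 5.14 and 6.96 on day 17 and 43.0 and 40.1 on day 25 and rose by 3.03 (SE 0.183, limma adjusted p = 4.88e-06). *Cd209c*, a lectin gene, had 1.12 and 1.31, then 2.70 and 2.49, then 9.75 and 12.5 RPKM and rose by 3.01. *Arid1a*, a subunit of the BAF chromatin remodelling complex, had 2.53 and 3.59, then 3.55 and 5.21, then 19.9 and 17.4 RPKM and rose by 2.50. *Trrap*, a scaffold of histone acetyltransferase complexes, and *Fasn*, the fatty acid synthase, rose by 2.41 and 2.68. The nuclear pore genes *Pom121* and *Nup214* rose by 2.48 and 2.46, the mechanosensitive channel *Fam38a* (Piezo1) by 2.56, and *Zfp423*, *Cherp*, *Plk3*, *Bend3*, *Midn* and *E2f8* by 2.39 to 2.77. The next gene in order was *Slc27a2*, with 2.35. The change from day 11 to day 17 was called for 9 of the 15. Day 17 lay between the other days for all 15, which the choice of genes with days 11 and 25 far apart favours.

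The 15 largest falls ran from -3.87 to -2.79. After *Tcl1* came *Cyct*, the testis cytochrome c, which had 59.8 and 61.2 RPKM on day 11, 34.1 and 31.5 on day 17 and 4.27 and 5.01 on day 25 (-3.76). *Got1l1*, an aminotransferase relative, had 15.1 and 14.1, then 1.87 and 2.05, then 1.50 and 1.01 RPKM and fell by 3.55. *Trh*, the precursor of thyrotropin-releasing hormone, had 63.6 and 69.5, then 35.0 and 29.6, then 6.71 and 7.35 RPKM and fell by 3.31 (SE 0.109, limma adjusted p = 6.09e-07). *Fabp3*, a fatty acid binding protein, had 359 and 345, then 89.0 and 69.4, then 41.5 and 47.2 RPKM and fell by 3.07. *Fut9*, which makes the SSEA-1 sugar epitope of ESCs, fell by 3.01. *Gm13227*, a noncoding transcript, fell by 3.53, and *Serpinb6c*, *Nupr1*, *Srgn*, *Ddah2*, *E330020D12Rik*, *Lrrc34*, *Spp1* and *Vegfa* had differences from -3.17 to -2.79. The next gene in order was *A4galt*, with -2.73. The change from day 11 to day 17 was called for all 15 of these genes. The rises and falls also differed in gene structure, with a median exon length of 5608 bases for the 15 rises and 1593 bases for the 15 falls, against 3408 bases over all tested genes.

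Exon length and GC content moved with the difference between days 25 and 11 over all genes. Genes called higher had a median exon length of 4095 bases and a median exon GC content of 52.0%, and genes called lower 2921 bases and 47.0%. Over 8 equal bins the median difference went from -0.448 in the bin of lowest GC content to 0.183 in the highest, and from -0.396 in the shortest bin to 0.144 in the longest. The difference between days 17 and 11 ran from 0.01 to 0.08 over GC content and from 0.089 to -0.055 over length. The same length trend separated 2 KO libraries of 1 group, since the medians of KO day 11 replicate 2 minus replicate 1 ran from -0.239 in the shortest bin to 0.292 in the longest. Over the 10870 genes the WT difference of days 25 and 11 had r = 0.573 with this difference between 2 replicates, a description over genes, which are not independent. KO day 11 replicate 2 was above replicate 1 for all 15 named rises and for 0 of the 15 named falls. *Polr2a* had 3.72 RPKM in the first of these KO libraries and 14.3 in the second, and *Arid1a* had 1.84 and 7.43.

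A correction of each library for a smooth trend against exon GC content and length was added after the data had been seen. It left bin medians between -0.033 and 0.059 and called 6700 genes, 3347 higher and 3353 lower. Of the 7004 genes called without it, 5476 were called with the same sign and 56 with the opposite sign. All 30 named rises and falls were still called, the rises with 1.76 to 3.32 and the falls with -3.65 to -2.16. Among 2748 genes of middle length and GC content 1776 (64.6%) were called. The medians of the naive, primed, ATF4 and hypoxia lists after the correction were -0.57, 0.78, -0.88 and -1.01. The correction also moved by more than 1.5 times the medians of the core pluripotency list (0.19), the LIF list (-0.56, with 7 called lower), the interferon list (-0.56), glycolysis (-0.37), primitive endoderm (-0.48), the H3K9 list (0.24), the DNA methylation list (0.07), the BMP list (-0.14) and the oxidative stress list (-0.09, with 7 called lower), and the heat shock median turned from -0.06 to 0.06. What part RNA quality, library preparation or the culture had in these trends was not tested.

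**Figure D4:**
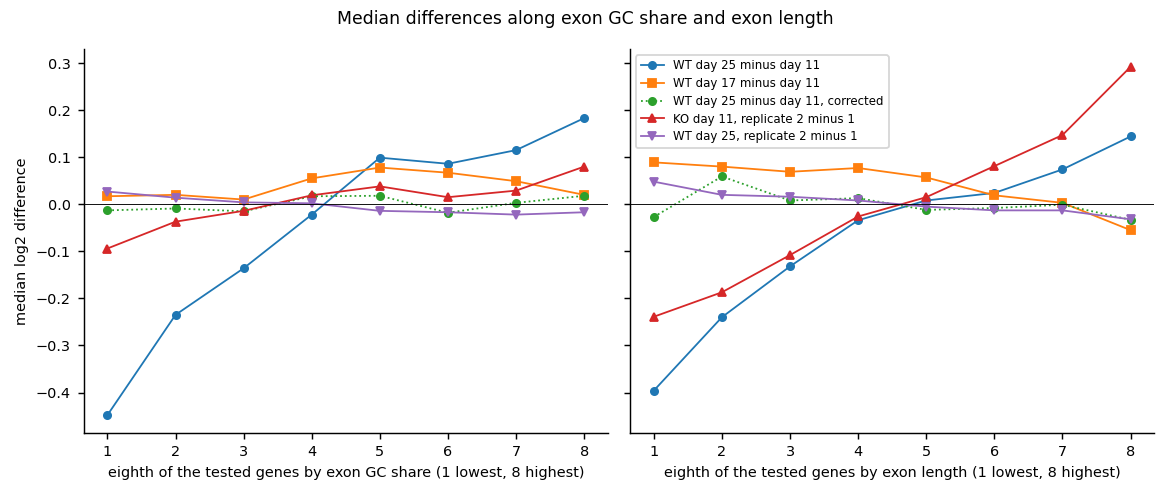
Median log2 difference in 8 equal bins of the tested genes by exon GC content (left) and exon length (right) for 5 differences. WT day 25 minus day 11 rose from -0.448 to 0.183 over GC content and from -0.396 to 0.144 over length, KO day 11 replicate 2 minus 1 ran from -0.239 to 0.292 over length, and day 17 minus day 11 and the corrected values stayed within 0.09 of 0.

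By chromosome, the medians of the 19 autosomes and the X lay between -0.19 and 0.07 except for chromosome 13, where 465 genes had a median of -0.37 that came to -0.11 after the correction. Chromosome 13 carries the main histone cluster, whose part in this median was not tested. The WT medians of chromosomes 1, 8 and 11 were -0.07, 0.00 and 0.07, while those of the KO difference between days 25 and 11 were 0.42, 0.32 and 0.21, so on these chromosomes the KO medians stood above the WT medians, a difference that was not tested by chromosome.

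The change from day 11 to day 25 in WT was set against the same change in the *Dnmt1* KO libraries with an interaction term over 11458 genes. The WT change was called above the KO change for 1984 genes (17.3%) and below it for 3067 (26.8%). The 5051 calls came to 3204 without WT day 11 replicate 1, 3294 without WT day 25 replicate 1, 3285 without KO day 25 replicate 2 and 4159 without KO day 11 replicate 2. Of the 15 named rises 14 differed from the KO change, and *Cd209c* did not (WT 3.01, KO 2.79, limma adjusted p = 0.54 for the difference). All 15 named falls differed from the KO change. *Trh* went the opposite way in KO, from 18.8 and 14.2 RPKM on day 11 to 40.4 and 45.7 on day 25 (1.41), and the interaction was -4.73 (limma adjusted p = 3.9e-06). *Nanog* had 225 and 166 RPKM in KO on day 11 and 155 and 144 on day 25, and the interaction was -2.07 (limma adjusted p = 0.00029). *Otx2* rose by 1.86 in KO and the interaction was -2.22. For *Dnmt3b* and *Asns* the KO differences were 0.04 and -0.17 and the interactions 1.64 and -2.12.

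Of the families that were lower in WT on day 25, histones, ribosomal proteins and respiratory subunits had KO medians near that of all genes, and the mitochondrially encoded, hypoxia and ATF4 lists had lower ones (-0.29, -0.47 and -0.23). The KO median was 0.07 for histones, 0.13 for cytosolic ribosomal proteins and 0.15 for respiratory subunits, against 0.05 over all genes, and the interaction was called lower for 51 of 59, 64 of 84 and 57 of 89 of their tested members. The naive genes had a KO median of -0.09, with the interaction called lower in 10 of 16 and higher in 0, and the SRF and YAP targets had one of 0.20, with 9 of 16 called higher and 0 lower. Imprinted genes had a KO median of -0.62, with 10 of 18 called higher in the interaction and 0 lower. Over all genes of the interaction test 17.3% were called higher and 26.8% lower. The WT and KO libraries also differed in Y-linked genes, 8 of which summed to 0.223 to 0.548 RPKM in the 6 WT libraries and to 23.7 to 39.3 RPKM in the 6 KO libraries. *Xist* was at 0.618 to 1.40 RPKM in WT and at 0.41 to 1.86 in KO. The genotype and this difference between the libraries cannot be told apart.

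**Figure D5:**
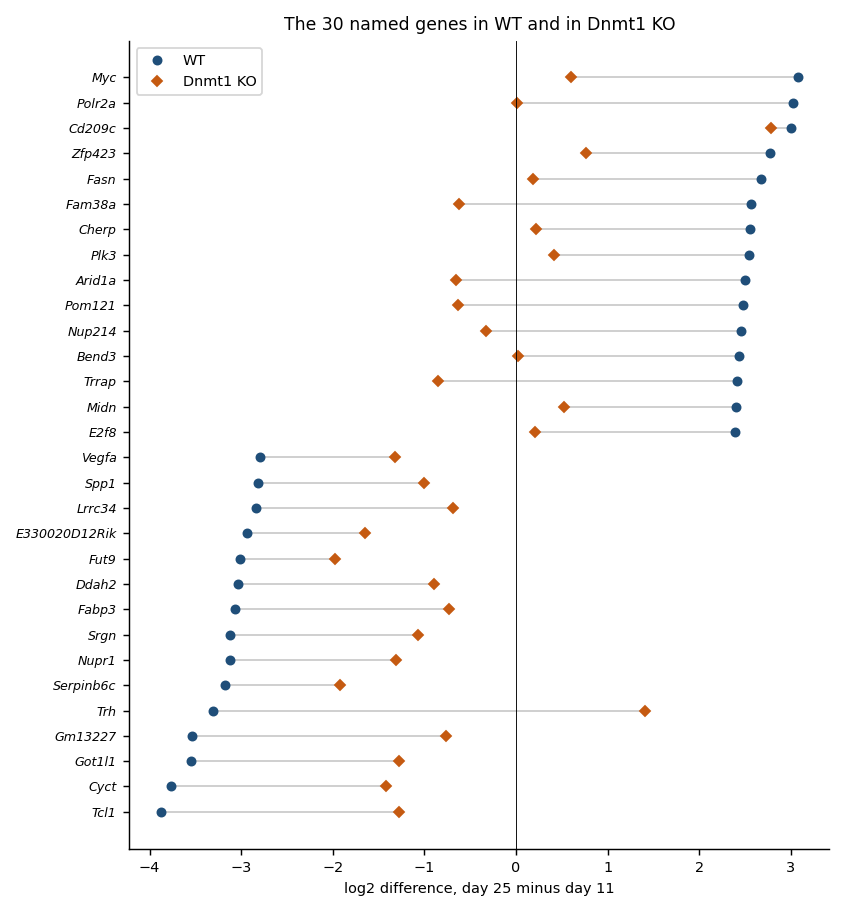
Log2 difference between days 25 and 11 for the 15 largest rises and 15 largest falls of WT, in WT (circles) and in Dnmt1 KO (diamonds), joined by a line for each gene. WT values lay between -3.87 and -2.79 or between 2.39 and 3.07 by selection, the KO values between -1.98 and 2.79, and only Cd209c had nearly the same value in both.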

How the data were processed

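The deposited values used here are linear RPKM for 26127 genes in 35 libraries. Per the labels and the study's methods, the authors trimmed reads (Trim Galore 0.3.5 in the submitters' processing notes), aligned them to NCBIM37 with TopHat2 2.0.11, discarded alignments with mapping quality under 20 and quantified exons with SeqMonk. The methods name log2 RPM for expression, but the deposited values are RPKM on a linear scale. In the 6 libraries at least 99.6% of values under 20 reads came out as whole reads, within 0.1 read, and limma's voom test on these recovered reads called 7048 genes different between days 25 and 11.

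Genes above 1 RPKM in at least 2 of the 6 WT libraries were tested on log2(RPKM + 0.1), each library centred on its median, with limma 3.58.1 (R 4.3.3) over the 6 libraries, with 3 residual degrees of freedom and the Benjamini-Hochberg adjustment at 0.05. The WT against KO interaction used the 12 libraries of days 11, 17 and 25. The test was checked on simulated independent reads with a small set of changed genes and no trend along GC content or length. That check does not cover data such as these, in which most genes were called and such trends are present. Named genes were the 15 largest rises and 15 largest falls among genes called, with a mean log2(RPKM + 0.1) of at least 1 over the 6 libraries and with both day 25 libraries on the same side of both day 11 libraries, plus Dnmt1 and Dicer1. Members of the gene lists are described where a result turns on them. The comparison and the gene lists were chosen with earlier results of these data known, so list counts are descriptions. Alternatives were another pseudocount, filter, scaling, tests on recovered reads, a replicate block and leaving out each library, and a correction for exon GC content and length and a restriction to genes of middle length and GC content, both chosen after seeing the data. Gene annotation was GENCODE mouse release 1 and promoter sequences were RefSeq GRCm38.p6. Other libraries of the series were not used here, except WT day 1 replicate 3. A few members of the gene lists are not reported here.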

Additional observations from a re-analysis of the deposited data

Results flagged for a closer look

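The change from day 11 to day 25 differed between WT and *Dnmt1* KO, by the test of the difference itself, for 1984 genes in which the WT change was above the KO change and 3067 in which it was below (limma, adjusted p under 0.05). With the values as log2 units of WT change minus KO change, the differences among the named rises were 2.46 for *Myc*, 3.01 for *Polr2a*, 2.00 for *Zfp423*, 2.48 for *Fasn*, 3.18 for *Fam38a*, 2.33 for *Cherp* and 2.12 for *Plk3*. The chromatin, nuclear pore and other genes among them had 3.15 for *Arid1a*, 3.1 for *Pom121*, 2.78 for *Nup214*, 2.40 for *Bend3*, 3.25 for *Trrap*, 1.88 for *Midn* and 2.17 for *E2f8*, and *Dnmt1* itself had 0.73. Among the named falls they were -2.61 for *Tcl1*, -2.36 for *Cyct*, -2.28 for *Got1l1*, -2.77 for *Gm13227*, -4.73 for *Trh*, -1.26 for *Serpinb6c*, -1.83 for *Nupr1* and -2.06 for *Srgn*. The remaining falls had -2.35 for *Fabp3*, -2.15 for *Ddah2*, -1.04 for *Fut9*, -1.29 for *E330020D12Rik*, -2.16 for *Lrrc34*, -1.83 for *Spp1* and -1.48 for *Vegfa*. The named genes had been chosen for large changes in WT, so a smaller change in KO is partly a matter of that choice. KO day 11 replicate 2 stood above replicate 1 for all 15 named rises, and its part in these values was not tested gene by gene.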

How the results depend on the processing

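Between days 25 and 11, 7004 genes were called. With a mean of at least 5 RPKM 3448 of 5099 were called and among genes of middle length and GC content 1776 of 2748, since fewer genes were tested. Leaving out 1 library gave 5480 to 7527. With a replicate block 6972 genes were called, and the block gave 4302 for days 11 to 17, 6360 for days 17 to 25 and 5124 for the WT and KO interaction, so it changed no count by over 1.5 times. The replicate differences of the days correlated with r = 0.225, -0.0442 and -0.156, so the numbers did not pair the libraries. Leaving out 1 library gave 2652 to 4711 calls for days 11 to 17 (2677 and 2652 without day 11 replicates 1 and 2), 4596 to 6642 for days 17 to 25 and 3204 to 6763 for the interaction. Among the 57 alternative counts, 7 moved by over 1.5 times.

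Without centring 51.0% of the calls of day 25 against day 11 were higher, against 45.0% with it. For days 17 to 25 the share was 51.9% without centring and 38.8% with it, and the median of all genes 0.01 and -0.13, and without the filter the share was 28%. For days 11 to 17 it was 72.7% without the filter, 47.9% without centring (2087 higher, 2270 lower) and 55.9% with both. All named genes kept direction, and only *Dicer1* lost its call, in 7 alternatives.

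With 2 libraries per day and 3 residual degrees of freedom the spread is known poorly, and trends along GC content and length bear on small differences. Genes under 1 RPKM were mostly not tested, and 3 reads on a gene with 1 kb of exon were worth 0.0779 to 0.111 RPKM. A gene of low level could pass the filter through the day on which it was highest, which favours a call. This holds for the rises of *Lef1*, *Zic2*, *Sall2*, *Egr1*, *Tet3* and *Thbs1*, which were under 1 RPKM on day 11. Log2 differences of genes near 0.1 RPKM understate the change.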

Other observations

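WT day 1 replicate 3 is the only other WT library with the same high share of reads in exons, 48.6%, and it is a single library, so it has no replicate check. Over the tested genes it correlated with the day 11 libraries at r of 0.946 and 0.949, with day 17 at 0.98 and 0.983 and with day 25 at 0.946 and 0.954. It lay on the day 25 side of day 11 for all 30 named rises and falls. For 14 of the 15 rises and 9 of the 15 falls its nearest day was day 17. These genes were chosen for days 11 and 25 lying far apart, so both counts follow partly from that choice. *Nanog* had 79.6 RPKM in it and *Dnmt3b* 34.5 RPKM, values nearest to day 17, and *Asns* had 27.5 RPKM, nearest to day 25. For *Asns*, *Nanog* and *Dnmt3b* this single day 1 library therefore did not stand at the start of a path through days 11, 17 and 25. The 8 Y-linked genes summed to 2.97 RPKM in it, above the 0.223 to 0.548 RPKM of the 6 WT libraries and below the KO range.

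Genes of other lineages held a few members above the filter. *Vim* (vimentin), an intermediate filament protein, had 5.78 and 5.25 RPKM on day 11, 12.5 and 10.8 on day 17 and 20.6 and 21.5 on day 25 and rose by 1.83, and in KO it rose by 2.28. *Nes* (nestin) rose by 1.86 from 0.844 and 0.818 to 3.76 and 3.22 RPKM, while *Tubb3* and *Msi1* of the same neural list fell by 0.36 and 0.60. *Eomes*, a factor of trophoblast and primitive streak, fell by 1.60 and *Tcfap2c* by 1.01. *Krt8* rose by 0.80 and its partner *Krt18* fell by 0.39. *Col18a1* rose by 1.51, from 6.82 and 8.72 to 24.5 and 22.3 RPKM.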
